A study of Mus musculus with 6 samples.

Results

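The genes described here code for the proteasome and its partners: the core subunits (Psma, Psmb), the regulatory subunits (Psmc, Psmd), the activators (Psme), the inhibitor Psmf1 and the assembly chaperones (Psmg and 3 Psmd genes). They were chosen by symbol alone, as every gene named Psm followed by a letter from a to g and a number, without the immunosubunits Psmb8, Psmb9 and Psmb10. This gave 45 of the 23420 genes in the count tables. Of these, 44 passed the filter on low counts. Psmb11, the thymus-specific core subunit, had 0 counts in each of the 6 libraries, which allows up to 0.211 CPM (counts per 1000000 counts of the library) in the shallowest of them. Psma8, the testis-enriched core subunit, passed the filter but lay at 0.056 to 2.45 CPM.

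The proteasome is the protease that removes most short-lived and damaged proteins of the cytosol and nucleus once they carry a chain of ubiquitin. Its core particle (20S) is a barrel of alpha and beta rings with the protease sites inside, and a regulatory particle (19S) caps the barrel, binds the ubiquitin chain, cuts it off, and unfolds the substrate with a ring of ATPases. Other caps replace 19S: the Psme1 and Psme2 ring, which interferon-gamma induces and which is best known from antigen processing, the nuclear Psme3 ring, and Psme4. When proteasome capacity is short, the transcription factor Nfe2l1, made in the endoplasmic reticulum and cut by Ddi2, raises the subunit genes together through antioxidant response elements.

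The libraries were made from laser-captured lacrimal gland epithelium of mouse embryos at E14.5, the stage at which the gland is a bud that grows out of the conjunctival epithelium. The question was what is lost from this bud without 3 related ETS factors: Pea3 (gene Etv4), Erm (Etv5) and Er81 (Etv1). There were 3 control libraries of genotype Le-Cre, titled WT, and 3 libraries called Pea3 TKO, which carried Le-cre with Pea3-/- and with the conditional alleles Ermfl/fl and Er81fl/fl. All were of mixed background and all carried the Cre transgene, which is active in the lacrimal gland and in the epithelium of the conjunctiva, so that Erm and Er81 were removed in that epithelium, while Pea3 was absent from the whole embryo. The sources used here do not state how many embryos went into a library, so p-values measure only the spread between these libraries.

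The libraries held 14194775 to 17860140 counts. The targeted genes were lower in Pea3 TKO, by a log2 fold change of -1.74 for Etv1 (adjusted p = 0.000429), -2.95 for Etv4 (adjusted p = 0.000257) and -2.93 for Etv5 (adjusted p = 6.63e-05, edgeR's quasi-likelihood test with Benjamini-Hochberg adjustment, the test used throughout). Epithelial markers were present in every library: Epcam lay at 1201 to 1500 CPM, and the summed level of 6 epithelial genes was 2810 to 3514 CPM in controls and 5027 to 5876 CPM in Pea3 TKO, with 5 of the 6 called higher. All 6 lacrimal bud markers were called lower (summed 2348 to 2455 CPM in controls, 531 to 683 CPM in Pea3 TKO), and 4 of 5 markers of surface ectoderm, conjunctiva and epidermis were called higher (541 to 1569 CPM, then 5094 to 7243 CPM).

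Pea3 TKO replicates 1 and 2 stood apart from the other 4 libraries in Xist, in Y-linked RNA and in the summed mesenchyme markers. Xist, the RNA of the inactive X chromosome, was at 106 and 32.5 CPM in them and at most 0.436 CPM elsewhere, while the Y-linked gene Ddx3y was at 0.0635 and 0.14 CPM in them and at 46.4 to 81.9 CPM in the other 4. The summed level of 10 mesenchyme markers was 401 and 563 CPM in these 2 libraries, with Col3a1 at 120 and 213 CPM, against 18.7 to 118 CPM in controls and 13.7 CPM in Pea3 TKO replicate 3. Of the 9 mesenchyme markers tested, 2 were called higher, and not all of the list followed the sum. Pdgfrb was at 1.65 and 4.96 CPM in these 2 libraries and at 3.49 to 3.84 CPM in controls. Fgf10 was at 0 in both and at 0.0623 to 1.11 CPM in controls. The endothelial marker Emcn and the globins Hba-a1 and Hba-a2 were at 0 in every library. The summed markers did not pass 14.3 CPM for immune cells, 7.76 CPM for endothelium, 16.4 CPM for blood and 7.55 CPM for neural crest derivatives. Values with these 2 libraries left out are therefore given beside the results, where Pea3 TKO replicate 3 alone is set against the 3 controls and assumed to vary as they do. Throughout, fewer cells of a type and less RNA per cell cannot be told apart in bulk RNA.

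Across the proteasome genes, 2 rose and 6 fell in Pea3 TKO, and 36 of the 44 tested were not called. The genes that rose were the activators Psme1 and Psme2. Those that fell were the 19S genes Psmc1, Psmc4, Psmd7, Psmd12 and Psmd14 and the activator Psme3. In the same comparison 25% of the 13087 tested genes were called, 13.6% higher and 11.3% lower. The share of proteasome genes called lower, 6 of 44, is close to that background, and 17 of the 44 had an unadjusted p under 0.05 (4943 of all 13087). The median log2 fold change was -0.18 over the 44 genes and 0.01 over all tested genes. The fold change was below 0 in 33 of the 44 genes (75%, against 49.2% of all tested genes). The Pea3 TKO and control values did not overlap in 22 genes, 19 lower and 3 higher, where 21.3% of all tested genes lay wholly lower and 22.5% wholly higher.

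**Figure D1:**
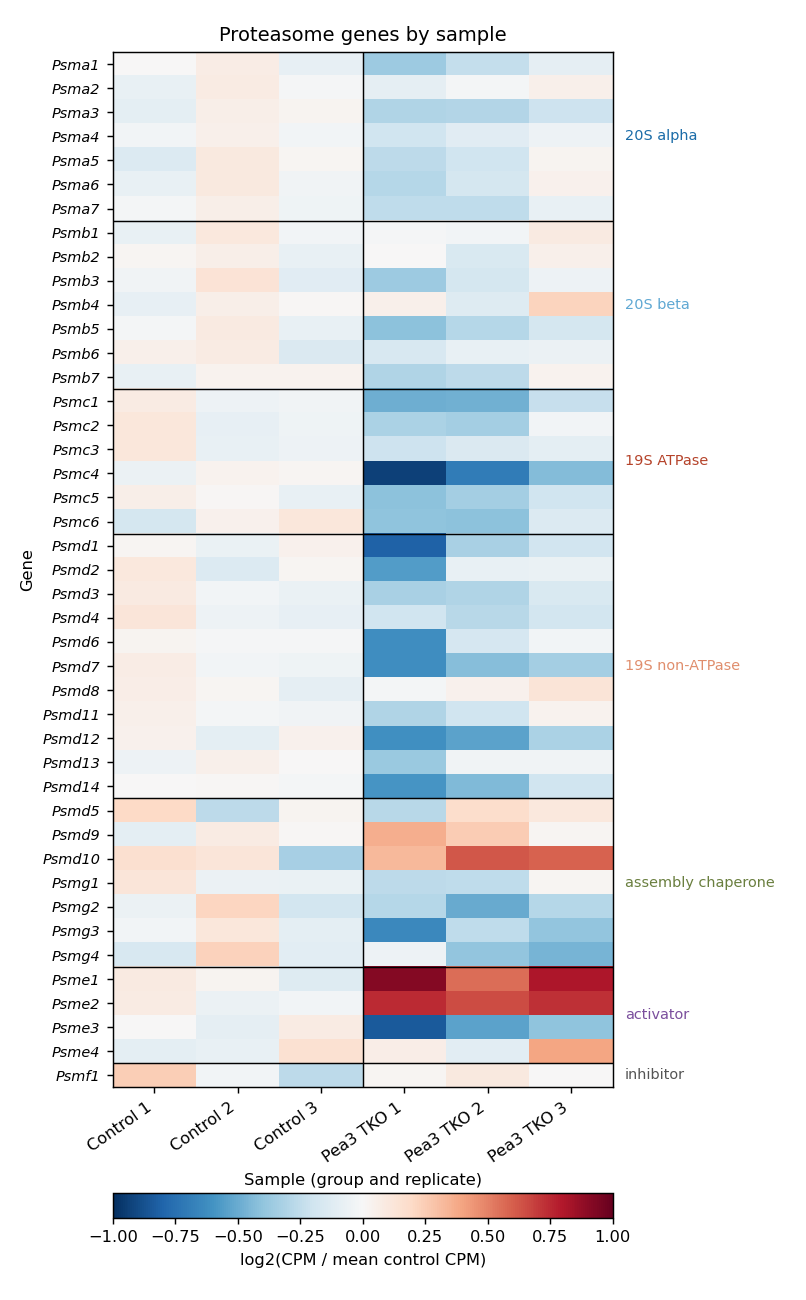
Level of each of 43 proteasome genes in each library (columns), as log2 of its CPM over the gene's mean control CPM (colour, blue lower and red higher), ordered by class; Psma8 and Psmb11 are left out for their low counts. Most 19S rows are paler in Pea3 TKO replicate 3 than in replicates 1 and 2, and the Psme1 and Psme2 rows are red in all 3 Pea3 TKO libraries.

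These counts differed between Pea3 TKO libraries. Replicate 3 was the highest of the 3 in 33 of the 44 genes (75%, against 32.3% of all tested genes), and replicate 1 the lowest in 30 (68.2%, against 35.6%). The summed level of the 44 genes was 80.6%, 86.4% and 95.2% of the control mean in Pea3 TKO replicates 1, 2 and 3. Without replicates 1 and 2, 2 genes were called higher and 0 lower, and the median was -0.043. A fit with the Y-linked level as a covariate gave 2 higher, 0 lower and a median of -0.057. The Y-linked level was low in the same 2 libraries alone, so that fit is not an independent check. In that fit 3.76% of all genes were called higher and 2.19% lower, and without the 2 libraries 2.28% and 2.04%. By DESeq2, 3 were higher and 9 lower, where 16% and 14.1% of all genes were called, and with the replicate number as a block 2 were higher and 4 lower (13.5% and 10.9% of all genes). With 1 library left out at a time, the number lower was 4, 3 and 1 without control 1, 2 and 3 (10.4%, 6.2% and 5.92% of all genes) and 4, 2 and 8 without Pea3 TKO 1, 2 and 3 (7.96%, 6.51% and 10.6%). Offsets for transcript length and GC content gave 3 higher and 12 lower (13.9% and 12.2% of all genes). The part of mesenchyme RNA and of embryo sex in the lower values of replicates 1 and 2 was not tested.

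The promoters of 4 genes are shown here because Pea3 factors bind ETS sites. They are 3 that fell and were picked for an ETS site in the window (Psmc1, Psmd12 and Psme3), and Psme1, which rose. Each window is the RefSeq sequence (GRCm38.p6) from 250 bases before the annotated start to 50 after it, on the plus strand, 5′ to 3′. They lie at chr12:100109952-100110251 (Psmc1), chr11:107479278-107479577 (Psmd12), chr11:101315963-101316262 (Psme3) and chr14:55578244-55578543 (Psme1). Capitals mark an ETS site, CCGGAAG or its reverse complement, and, at the left end of the Psmd12 window, the core of the antioxidant response element, TGACNNNGC, also read on the reverse strand. The 2 motifs did not overlap in these windows.
Psmc1: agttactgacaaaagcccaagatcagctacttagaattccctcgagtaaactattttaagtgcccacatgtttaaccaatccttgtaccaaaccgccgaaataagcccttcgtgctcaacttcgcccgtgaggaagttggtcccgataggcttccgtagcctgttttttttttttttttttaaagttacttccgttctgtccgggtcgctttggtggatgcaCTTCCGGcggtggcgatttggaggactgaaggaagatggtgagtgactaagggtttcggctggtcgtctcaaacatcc
Psmd12: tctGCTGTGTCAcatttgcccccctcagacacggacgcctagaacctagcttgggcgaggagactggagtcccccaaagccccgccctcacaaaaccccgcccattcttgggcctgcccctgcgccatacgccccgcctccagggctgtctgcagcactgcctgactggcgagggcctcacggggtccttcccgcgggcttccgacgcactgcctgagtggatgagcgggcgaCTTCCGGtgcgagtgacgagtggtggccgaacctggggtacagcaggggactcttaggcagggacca
Psme3: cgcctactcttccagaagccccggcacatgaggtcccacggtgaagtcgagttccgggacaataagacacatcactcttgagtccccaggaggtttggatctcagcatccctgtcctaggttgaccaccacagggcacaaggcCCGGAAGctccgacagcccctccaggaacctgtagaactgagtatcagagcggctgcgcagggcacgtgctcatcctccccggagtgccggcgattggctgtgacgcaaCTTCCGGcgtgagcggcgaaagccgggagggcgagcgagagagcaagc
Psme1: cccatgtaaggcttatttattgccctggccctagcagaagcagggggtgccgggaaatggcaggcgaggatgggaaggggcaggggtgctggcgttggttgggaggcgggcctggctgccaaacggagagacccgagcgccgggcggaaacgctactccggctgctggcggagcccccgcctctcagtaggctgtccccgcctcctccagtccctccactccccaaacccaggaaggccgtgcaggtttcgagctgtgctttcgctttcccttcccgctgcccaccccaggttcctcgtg

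The ETS sites began 28 bases before the start in Psmc1 and 17 before it in Psmd12, and in Psme3 107 before it and 2 after it. A promoter window was matched for 37 of the 45 genes. Of these, 14 (37.8%) held at least 1 CCGGAAG on either strand, against 9.93% of 27025 genes with a window. That set takes in every gene with a window, expressed in these libraries or not. The share among the tested genes, or among other widely expressed genes, was not computed, so the difference is not particular evidence of Pea3 targets. The sites were unevenly spread over the complex: 9 of 14 genes of the 19S particle held one (64.3%) and 1 of 11 genes of the 20S core (9.09%). Among the genes called lower, 3 of the 5 with a window held an ETS site, while Psmc4 and Psmd14 held none. Neither Psme1 nor Psme2 held one. The 19S genes with a site also included Psmc2, Psmc6, Psmd2, Psmd4, Psmd6, Psmd11 and Psmd13, none of which was called. The antioxidant response core was in 6 of the 37 genes (16.2%, against 14% of all). A match of letters describes the sequence and does not show that a factor binds there. Whether genes with a site fell more than genes without one was not tested.

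In the 20S core, none of the 14 genes was called by edgeR (2 had an unadjusted p under 0.05, Psma3 and Psmb5, and DESeq2 called 1, Psma3). The fold change was below 0 in 12 of the 14 (49.2% of all tested genes), with a median of -0.14. The groups did not overlap in 5 of them, all lower (21.3% of all tested genes). The summed level of the 14 genes was 4935, 5351 and 4915 CPM in controls and 4403, 4524 and 5008 CPM in Pea3 TKO. Replicates 1 and 2 lay below all controls and replicate 3 lay among them.

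Among the alpha subunits, which form the outer rings and the gate, Psma3 had the lowest fold change and Psma2 the highest. Psma3 was at 358, 399 and 390 CPM in controls and 310, 312 and 332 CPM in Pea3 TKO, which gave a fold change of -0.27 on the log2 scale (adjusted p = 0.0949). The groups did not overlap, but the difference missed the threshold. Psma2 was at 394, 440 and 412 CPM in controls and 391, 410 and 431 CPM in Pea3 TKO (log2 fold change -0.02, adjusted p = 0.929), so the values of the groups were interleaved.

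The beta subunits hold the protease sites: Psmb5 cuts after hydrophobic residues, Psmb6 after acidic and Psmb7 after basic ones. Psmb5 was at 114, 123 and 110 CPM in controls and 87.1, 95.1 and 102 CPM in Pea3 TKO, wholly lower but not called (log2 fold change -0.29, adjusted p = 0.109). Psmb6 was at 592, 607 and 519 CPM in controls and 512, 543 and 549 CPM in Pea3 TKO (-0.10, adjusted p = 0.562). Psmb7 was at 199, 215 and 215 CPM in controls and 170, 175 and 215 CPM in Pea3 TKO (-0.17, adjusted p = 0.361). The values of Psmb6 and Psmb7 overlapped between the groups. Psmb4, a beta subunit without a protease site, had the highest fold change of the class (0.05, adjusted p = 0.79), at 203, 223 and 216 CPM in controls and 221, 195 and 249 CPM in Pea3 TKO. For Psmb5 and Psmb7, 24.9% and 20% of the 100-base stretches of the principal transcript also occur in other genes' transcripts, as do 27.5% of those of Psma5 and 20.6% of those of Psma3, so that their counts may be short of reads or hold some from those copies.

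The 19S particle held 5 of the 6 genes that fell. Of its 17 genes, 5 were called, all lower (11.3% of all tested genes were lower), 16 had a fold change below 0 (49.2% of all), and the median was -0.26. The groups did not overlap in 11 of the 17, all lower (21.3% of all). The summed level was 6226, 5883 and 5958 CPM in controls and 4330, 4899 and 5405 CPM in Pea3 TKO, which is 71.9%, 81.3% and 89.7% of the control mean. All 3 Pea3 TKO libraries lay below all controls, replicate 3 the least. The ratio of the summed 19S to the summed 20S level was 1.26, 1.1 and 1.21 in controls and 0.983, 1.08 and 1.08 in Pea3 TKO. The lowest control ratio and the 2 highest Pea3 TKO ratios lay close together, and the ratio was not tested.

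**Figure D2:**
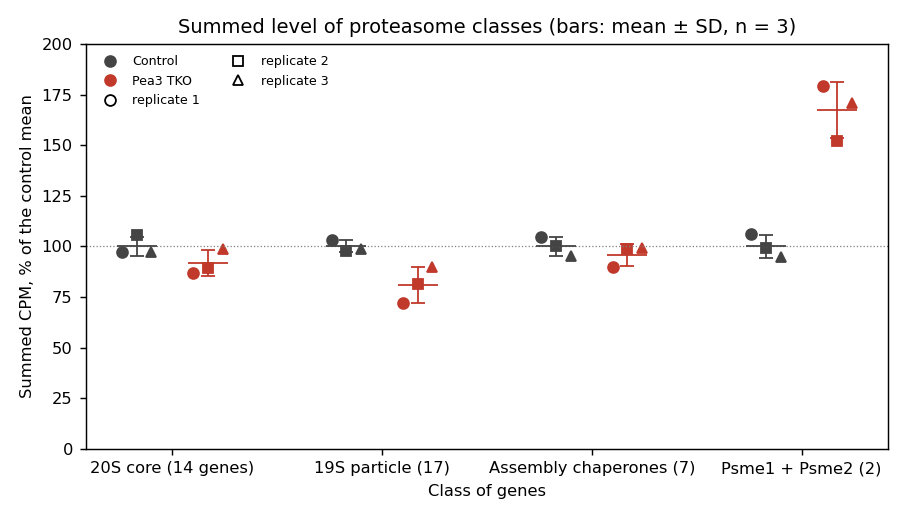
Summed CPM of 4 classes of proteasome genes in each library, as a percent of the class's control mean (points, shaped by replicate; lines and bars, mean ± SD, n = 3). The 19S particle lies at 71.9% to 89.7% in Pea3 TKO, the 20S core at 86.9% to 98.8%, and Psme1 plus Psme2 at 152% to 179%.

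The ATPases of the 19S base, which unfold the substrate, all had a fold change below 0 (49.2% of all tested genes), with a median of -0.31. Of the 6, 2 were called, both lower (11.3% of all tested genes). The groups overlapped in 2 of the 6, Psmc2 and Psmc6, and the others lay wholly lower (21.3% of all tested genes). Psmc4 (chr7:28041707-28050101, minus strand, GRCm38) had the lowest fold change of all proteasome genes. It was at 526, 563 and 557 CPM in controls and 287, 339 and 405 CPM in Pea3 TKO. The groups were well apart. The log2 fold change was -0.67 ± 0.14, where the error is the standard error over 3 libraries in each group (adjusted p = 0.00701). The call held with each library left out in turn, but not without Pea3 TKO replicates 1 and 2 together (-0.43, adjusted p = 0.108) nor with the Y-linked covariate (-0.44, adjusted p = 0.174). Psmc1 (chr12:100110154-100123405, plus strand) was at 357, 325 and 328 CPM in controls and 239, 241 and 287 CPM in Pea3 TKO. Its log2 fold change was -0.40 ± 0.12 (adjusted p = 0.0335) without overlap. That call was lost with 5 of the 6 libraries left out in turn: the adjusted p was 0.0792, 0.0802 and 0.0841 without control 1, 2 and 3, and 0.0774 and 0.127 without Pea3 TKO 1 and 2. With the replicate number as a block it was 0.057. Psmc3 had the smallest difference of the class (-0.15, adjusted p = 0.343), at 430, 377 and 382 CPM in controls and 343, 358 and 370 CPM in Pea3 TKO.

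The other 11 genes of the 19S particle bind and cut the ubiquitin chain and build the lid. They held 3 calls, all lower (11.3% of all tested genes), with a median of -0.25. Psmd12, a structural subunit of the lid (chr11:107479484-107504362, plus strand), was at 306, 278 and 306 CPM in controls and 194, 205 and 238 CPM in Pea3 TKO. The log2 fold change was -0.48 ± 0.12 (adjusted p = 0.0162). The adjusted p was 0.0626 without control 3 and 0.0714 without Pea3 TKO 2. Psmd7 (chr8:107580381-107588464, minus strand) and Psmd14 (chr2:61711694-61800376, plus strand) are the pair of lid proteins in which Psmd14 is the enzyme that cuts off the ubiquitin chain and Psmd7 its inactive partner. Psmd7 was at 413, 384 and 380 CPM in controls and 255, 293 and 311 CPM in Pea3 TKO. Its log2 fold change was -0.45 ± 0.12 (adjusted p = 0.0187). Psmd14 was at 288, 291 and 285 CPM in controls and 192, 213 and 251 CPM in Pea3 TKO. Its log2 fold change was -0.40 ± 0.12 (adjusted p = 0.04). Both members of the pair fell without overlap. The call of Psmd7 was lost without control 2 (adjusted p = 0.0576), control 3 (0.0524) or Pea3 TKO 2 (0.0611). The call of Psmd14 was lost without any library but Pea3 TKO 3 (adjusted p 0.0662 to 0.132), and with the replicate block (0.0547).

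Without Pea3 TKO replicates 1 and 2, the fold changes of these 3 lid genes stayed below 0 but none passed the threshold: -0.31 for Psmd12 (adjusted p = 0.258), -0.32 for Psmd7 (0.2) and -0.19 for Psmd14 (0.446), and -0.22 for Psmc1 (0.384). Psmd8 had the highest fold change of the 19S particle (0.05, adjusted p = 0.766), at 311, 300 and 279 CPM in controls and 292, 306 and 324 CPM in Pea3 TKO, and its groups overlapped. Psmd1, the scaffold of the base, was wholly lower at 476, 448 and 484 CPM in controls and 268, 374 and 410 CPM in Pea3 TKO, but it was not called (-0.42, adjusted p = 0.0745). Replicate 1 lay far below the other Pea3 TKO libraries.

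**Figure D3:**
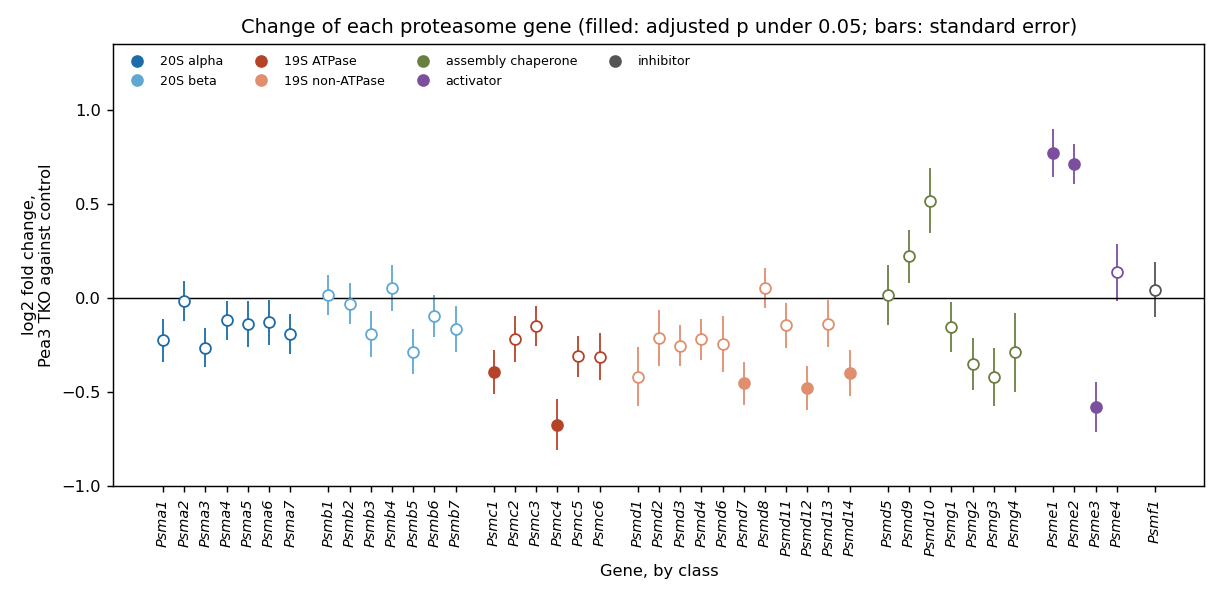
Log2 fold change of Pea3 TKO against control for 43 proteasome genes, grouped by class (points; bars, standard error; n = 3 libraries in each group). Filled points are called at an adjusted p under 0.05: 2 genes higher, both activators, and 6 lower, 5 of them in the 19S particle.

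The activators moved apart. Psme1 and Psme2 rose and Psme3 fell, while Psme4 was not called. Psme1 and Psme2 code for the subunits that share a single ring, and their genes are near neighbours on chromosome 14 (chr14:55578123-55581529, plus strand, and chr14:55587441-55591113, minus strand). Psme1 was at 120, 115 and 103 CPM in controls and 213, 166 and 198 CPM in Pea3 TKO. Its log2 fold change was 0.77 ± 0.13 (adjusted p = 0.00286). Psme2 was at 105, 94.8 and 97.3 CPM in controls and 166, 156 and 164 CPM in Pea3 TKO. Its log2 fold change was 0.71 ± 0.11 (adjusted p = 0.00172). Every Pea3 TKO library lay above every control for both genes, replicate 3 included. Summed, they stood at 179%, 152% and 171% of the control mean.

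These were the steadiest calls of the group. Both were called in all 16 alternatives run, at log2 fold changes of 0.65 to 0.87 for Psme1 and 0.61 to 0.75 for Psme2. Without Pea3 TKO replicates 1 and 2 the values were 0.82 (adjusted p = 0.0356) and 0.74 (0.0449), and with the Y-linked covariate 0.82 (0.0373) and 0.74 (0.0297). In Pea3 TKO replicate 3, Psme1 was at 198 CPM and Psme2 at 164 CPM. In that library the summed mesenchyme markers lay below and the Y-linked counts near those of the controls. Its summed markers of surface ectoderm, conjunctiva and epidermis were at 5094 CPM, far above the 541 to 1569 CPM of the controls. That is 1 library, and the part of mesenchyme RNA, of embryo sex and of the higher surface ectoderm markers in these differences was not tested. Of the Psme2 transcript, 44.5% of the 100-base stretches also occur in Psme2b, a near copy that is not in the count tables, so its counts are uncertain, whereas 1.09% of those of Psme1 are shared.

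Psme3, which forms the nuclear ring, went the other way. It was at 417, 390 and 439 CPM in controls and 232, 286 and 315 CPM in Pea3 TKO. Its log2 fold change was -0.58 ± 0.13 (adjusted p = 0.0119). The groups did not overlap. The call was lost without control 3 (adjusted p = 0.0507) and without Pea3 TKO replicates 1 and 2 (-0.39, adjusted p = 0.161), and with the Y-linked covariate (-0.40, adjusted p = 0.247). The ratio of Psme3 to Psme1 within a library was 3.47, 3.39 and 4.26 in controls and 1.09, 1.72 and 1.59 in Pea3 TKO. Psme3 was called lower and Psme1 higher in these same libraries, so a lower ratio follows from those calls. The ratio was not tested. Psme4 was at 93.4, 94.8 and 111 CPM in controls and 104, 92.9 and 131 CPM in Pea3 TKO (0.13, adjusted p = 0.559). The inhibitor Psmf1 was at 108, 89.2 and 75.7 CPM in controls and 92.1, 97.3 and 91.3 CPM in Pea3 TKO (0.04, adjusted p = 0.869). Both overlapped between the groups.

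None of the 7 assembly chaperones, which guide subunits into the rings and leave before the proteasome is complete, was called by edgeR (3 had an unadjusted p under 0.05, and DESeq2 called 1). The median was -0.16, with 4 below 0 (49.2% of all tested genes). Psmd10, a chaperone of the 19S base on the X chromosome (chrX:140948429-140956728, minus strand), had the highest fold change. It was at 46.6, 45.4 and 33.1 CPM in controls and 52.2, 64.1 and 62.7 CPM in Pea3 TKO, wholly higher, but missed the threshold (0.52 ± 0.17, adjusted p = 0.0529). It passed in 5 of 16 alternatives, DESeq2 among them (adjusted p = 0.0304). Psmg3, a chaperone of the alpha ring, had the lowest, at 49.9, 55.2 and 47.7 CPM in controls and 32.6, 42.7 and 38.8 CPM in Pea3 TKO (-0.42, adjusted p = 0.0744). The summed chaperones were at 89.6%, 98.6% and 99.2% of the control mean, nearer to control than the 19S particle in every Pea3 TKO library.

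Levels of different subunits can be compared only per length, here as CPM per kilobase of the principal transcript. In controls the core genes led: Psmb6 was at 717 ± 59.2 and Psma7 at 669 ± 24.8 (SD, n = 3), followed by Psmb2 at 461 ± 21.5 and Psma6 at 443 ± 27.6. Psmb6 and Psma7 did not differ beyond their spread, nor did Psmb2 and Psma6. The ATPases Psmc4 (381 ± 13.6) and Psmc5 (301 ± 14.2) were the highest of the 19S particle. Psme3 (156 ± 9.15) stood above Psme1 (101 ± 8) and Psme2 (103 ± 5.26), which differed by less than their spread. In Pea3 TKO this order turned: Psme1 stood at 173 ± 21.2, Psme2 at 168 ± 5.94 and Psme3 at 104 ± 15.8. Psme1 and Psme2 again differed by less than their spread. The level of Psme2 is uncertain, because 44.5% of its 100-base stretches also occur in Psme2b, and the SD does not cover this. Psme4 (15.4 ± 1.5) was the lowest of the genes above the low-count group, after Psmd9 (23.8 ± 1.46) and Psmf1 (23.9 ± 4.23).

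**Figure D4:**
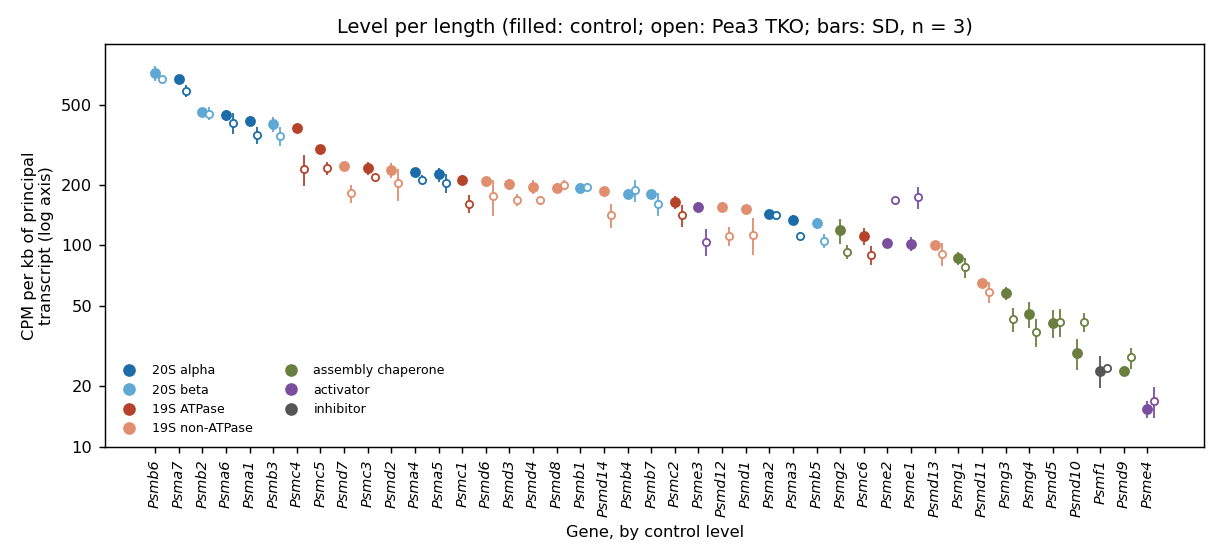
Level of 43 proteasome genes per kilobase of the principal transcript (log axis), ordered by the control mean (filled, control; open, Pea3 TKO; bars, SD, n = 3; colours, class). Core genes lead the order from Psmb6 at 717 CPM per kilobase, and Psme1 and Psme2 pass Psme3 in Pea3 TKO.

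Of the wider ubiquitin-proteasome pathway, 75 genes on a list of 81 symbols were in the table and all were tested. Of these, 5 rose and 6 fell, 64 were not called, and the median log2 fold change was -0.06. Over all genes, 13.6% were called higher and 11.3% lower. Without Pea3 TKO replicates 1 and 2, 2 of the 75 were called higher and 0 lower, and the same counts came with the Y-linked covariate.

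Of the immunosubunits that replace the core protease sites, Psmb8 and Psmb10 rose and Psmb9 was not called. Psmb8 was at 1.92, 0.436 and 0.845 CPM in controls and 12.7, 3.78 and 5.52 CPM in Pea3 TKO (2.77 ± 0.68, adjusted p = 0.0169). Psmb9 was at 1.07, 0.125 and 0.39 CPM in controls and 2.29, 3.01 and 2.41 CPM in Pea3 TKO (2.25, adjusted p = 0.0713). Psmb10 was at 19.8, 25.9 and 20.4 CPM in controls and 35.7, 29.6 and 33.7 CPM in Pea3 TKO (0.58 ± 0.19, adjusted p = 0.047). In all 3 genes the Pea3 TKO libraries lay above every control, but the levels of Psmb8 and Psmb9 were low beside those of Psme1 and Psme2. The Psmb10 call was lost with any library left out (adjusted p 0.0538 to 0.143). That of Psmb8 was lost without control 2 (0.0553), control 3 (0.0575) or Pea3 TKO 1 (0.0846).

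The transcription factor Nfe2l3, a relative of Nfe2l1, rose from 7.61, 6.29 and 5.98 CPM in controls to 29.1, 32.8 and 26.1 CPM in Pea3 TKO (2.14 ± 0.22, adjusted p = 0.000276). The Pea3 TKO libraries lay close together, all above the controls. Nfe2l1 was not called (116, 158 and 206 CPM in controls, 117, 147 and 119 CPM in Pea3 TKO, adjusted p = 0.253), nor was Nfe2l2, the factor of the oxidative stress response (73.7, 67.2 and 58.4 CPM, then 75.4, 67 and 73.6 CPM, adjusted p = 0.58). Nfe2l3 was called in all 16 alternatives, and without Pea3 TKO replicates 1 and 2 its log2 fold change was 1.99 (adjusted p = 0.0245).

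**Figure D5:**
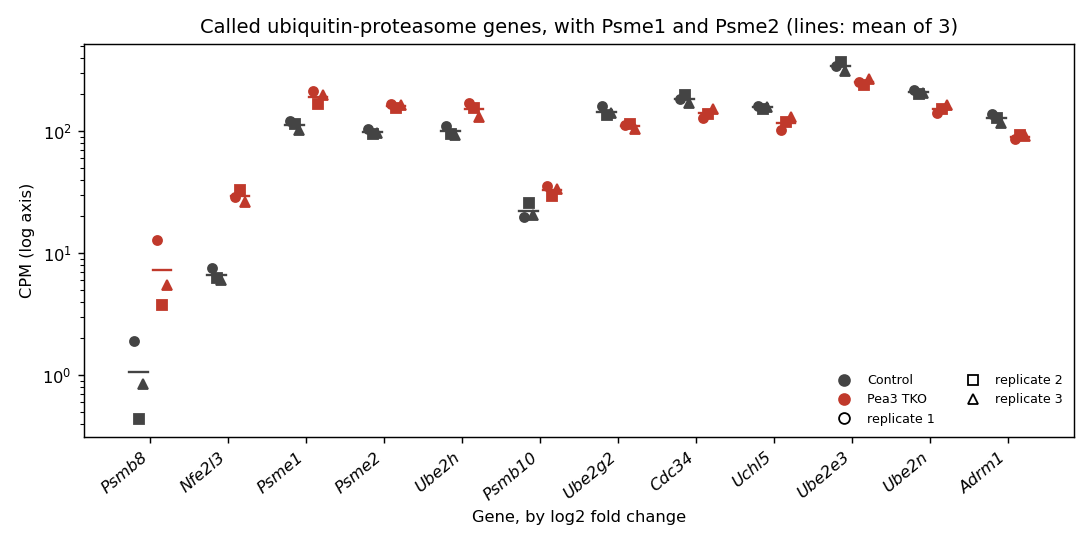
CPM (log axis) in each library of 10 ubiquitin-proteasome genes that were called outside the proteasome genes proper, with Psme1 and Psme2 for reference, ordered by log2 fold change (points, libraries, shaped by replicate; lines, mean of 3). Nfe2l3 lies at 5.98 to 7.61 CPM in controls and at 26.1 to 32.8 CPM in Pea3 TKO.

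Genes that bind the proteasome or feed it held the lower calls. Adrm1, the ubiquitin receptor of the 19S base, fell from 139, 127 and 118 CPM in controls to 86.1, 92.4 and 91.9 CPM in Pea3 TKO (-0.50 ± 0.12, adjusted p = 0.0127). Uchl5, the deubiquitinase that Adrm1 holds, fell from 159, 153 and 156 CPM to 103, 119 and 131 CPM (-0.41 ± 0.12, adjusted p = 0.0336). Both partners were lower in every Pea3 TKO library. Pomp, the chaperone that matures the core, was not called (251, 230 and 232 CPM in controls, 238, 207 and 246 CPM in Pea3 TKO, adjusted p = 0.819). Among 19 ubiquitin-conjugating enzymes 4 fell (11.3% of all tested genes), namely Ube2n (-0.45, adjusted p = 0.015), Ube2e3 (-0.43, 0.0225), Cdc34 (-0.40, 0.0328) and Ube2g2 (-0.39, 0.0367). Ube2h was the single one of the 19 that rose (0.60, adjusted p = 0.0107), where 13.6% of all tested genes rose. Of its 100-base stretches, 32.5% are shared with other genes. Of these 7 genes, Adrm1 kept its call with each library left out in turn, but it was lost with the Y-linked covariate. Of the Adrm1 transcript, 67.5% of the 100-base stretches also occur in Gm9774, so its counts are uncertain. The calls of Uchl5 (adjusted p 0.0635 to 0.098) and Cdc34 (0.0548 to 0.126) were lost without any library but Pea3 TKO 3, and that of Ube2g2 without any library (0.0657 to 0.0989). Ube2n was lost without control 3 (adjusted p = 0.0505) or Pea3 TKO 2 (0.0573), Ube2e3 without control 2 (0.097) or Pea3 TKO 2 (0.0942), and Ube2h without control 2 (0.0506) or control 3 (0.0507). Of 6 activating enzymes, 12 core genes of the cullin-RING ligases and 11 shuttle and p97 genes, 0 were called by edgeR, with 4, 2 and 2 at an unadjusted p under 0.05. DESeq2 called 2, 1 and 1 of them.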

How the data were processed

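RNA from laser-captured lacrimal gland epithelium was amplified with the Ovation RNA-seq System V2, made into TruSeq libraries and sequenced on a HiSeq2500, per the labels. The authors deposited raw gene counts for each of the 6 libraries. The submitters' processing notes name bcl2fastq 2.17, STAR 2.5.2b, featureCounts 1.5.0-p3, DESeq and mm10. The strand setting of the counting is not given in the sources used here, so reads of overlapping genes on opposite strands may be mixed. Amplified reads are not independent molecules, and the limit that a count of 0 allows (3 counts) covers counting error only.

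From the counts, edgeR 4.0.16 (R 4.3.3) fitted the 13087 genes kept by filterByExpr with TMM scaling and the condition alone, and the quasi-likelihood test was adjusted by Benjamini-Hochberg over all of them, with calls at an adjusted p under 0.05. CPM are TMM-scaled. Standard errors are the log2 fold change over the root of F. DESeq2 1.42.0, other scalings, filters, a replicate block, a Y-linked covariate and left-out libraries were alternatives. The script was tested on simulated data. Lengths and shared 100-base stretches come from GENCODE transcripts on GRCm38. Genes named with values are every called one, the highest and lowest fold change per class, the protease subunits, Psmd14, the activators and the inhibitor. Of the pathway they are the called genes reported here and Nfe2l1, Nfe2l2, Pomp, Psmb8, Psmb9 and Psmb10. Others named were chosen after their values were seen. Results of some genes counted in the pathway list are not reported here. Members and lists were chosen with earlier results of these data known.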

Additional observations from a re-analysis of the deposited data

How the results depend on the processing

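Across 16 alternatives no result changed direction past the threshold, and Psme1, Psme2 and Nfe2l3 were called in all of them. Other calls moved in both directions. With the Y-linked covariate, the proteasome genes called lower went from 6 to 0, with a median log2 fold change of -0.057, pathway genes from 5 higher and 6 lower to 2 and 0, and all tested genes from 1783 and 1485 to 492 and 286. Without Pea3 TKO replicates 1 and 2, an alternative chosen after seeing the data, these were 0 proteasome genes lower (median -0.043), 2 and 0 pathway genes, and 315 and 282 of all genes. The Y-linked level was low in those same 2 libraries alone, so the covariate and their removal are not independent alternatives. Length and GC offsets, also added later, gave 12 proteasome and 11 pathway genes lower. DESeq2 gave 8 pathway genes higher and 13 lower. Leaving out 1 library at a time gave 1 to 8 proteasome genes lower (4, 3 and 1 without control 1, 2 and 3, and 4, 2 and 8 without Pea3 TKO 1, 2 and 3), 2 to 5 and 1 to 8 pathway genes higher and lower, and 1131 to 1948 and 799 to 1417 of all genes. Where 2 or fewer libraries remain in a group, fewer samples enter the fit, and for the other changes the cause was not tested. Correlations of deviations of same-numbered libraries were 0.13, -0.04 and -0.00092, and those of differently numbered libraries of the 2 groups were -0.11 to 0.13. With 3 libraries in each group, these values cannot settle whether the replicate numbers pair the libraries. With the replicate block 2 proteasome genes were called higher and 4 lower, Psmc1 (adjusted p = 0.057) and Psmd14 (0.0547) being lost. Psmb8, Psmb9 and Psma8 had few counts, which limits their precision.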

Other observations

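Other large, widely expressed complexes gave a range of values in the same fit. Of 8 genes of the CCT chaperonin, which folds actin and tubulin, 4 were called, all lower (6 by DESeq2), where 11.3% of all tested genes were called lower (14.1% by DESeq2). All 8 had a fold change below 0, and the median was -0.44. In 7 of the 8 the groups did not overlap, all lower (21.3% of all tested genes), and Pea3 TKO replicate 3 was the highest and replicate 1 the lowest of the Pea3 TKO libraries in all 8, the order also seen in most 19S genes. Of 78 ribosomal protein genes tested, 2 were called, both lower, with a median of -0.01 (DESeq2 called 2 higher and 3 lower). Replicate 3 was also the highest of the Pea3 TKO libraries in 60 of these 78 (76.9%), as in the proteasome genes, but replicate 1 was the lowest in 7 (8.97%). Of 89 genes of the respiratory chain and ATP synthase, 3 were higher and 6 lower, with a median of 0.03, where 13.6% of all tested genes were higher and 11.3% lower. The difference between these families and the proteasome genes was not tested.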
